A study of Mus musculus with 4 samples.

Results

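The genes described here are 34 genes of glycolysis and of the pentose phosphate pathway, chosen by name and not by any value. They cover the entry of glucose (*Slc2a1*, *Slc2a3*), its phosphorylation (*Hk1*, *Hk2*, *Hk3*), upper glycolysis (*Gpi1*, *Pfkl*, *Pfkm*, *Pfkp*, *Pfkfb3*, *Pfkfb4*, *Aldoa*, *Aldoc*), lower glycolysis (*Tpi1*, *Gapdh*, *Pgk1*, *Pgam1*, *Bpgm*, *Eno1*, *Eno3*, *Pkm*), the making and export of lactate (*Ldha*, *Ldhb*, *Slc16a1*, *Slc16a3*), the pentose phosphate pathway (*G6pdx*, *Pgls*, *Pgd*, *Tkt*, *Taldo1*, *Rpia*, *Rpe*) and phosphoglucomutase (*Pgm1*, *Pgm2*). All 34 were found among the 18695 genes of the count table, and all are protein-coding genes of the mouse genome.

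Glycolysis breaks glucose down to pyruvate and yields ATP without oxygen. Hexokinase traps glucose in the cell as glucose 6-phosphate, phosphofructokinase sets the pace of the steps that follow, and lactate dehydrogenase turns pyruvate into lactate, which leaves the cell through monocarboxylate transporters. The pentose phosphate pathway branches off at glucose 6-phosphate. Its oxidative arm (*G6pdx*, *Pgls*, *Pgd*) makes NADPH, which neutrophils and other phagocytes use for the respiratory burst and against oxidants, and its non-oxidative arm (*Rpia*, *Rpe*, *Tkt*, *Taldo1*) makes ribose for nucleotides and returns sugars to glycolysis. Neutrophils hold few mitochondria and are known to live largely on glycolysis.

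The libraries were 10x Genomics single-cell RNA libraries of mouse bone marrow, which count unique molecular identifiers (UMIs), the tags that mark each captured transcript near its 3' end. Control mice (WT) were *Tet2* fl/fl littermates without Mx1-Cre, and *Tet2* KO mice were *Tet2* fl/fl with Mx1-Cre. *Tet2* encodes an enzyme that oxidizes methylated cytosines in DNA, and the Mx1 promoter is induced by interferon in blood cells and in other tissues, so the deletion is not limited to one lineage. All mice, the controls included, were 8 to 12 weeks old by the study's methods and had received 4 injections of 12.5 µg/g of the inducer pI:pC. Each genotype gave 1 GMP library (lineage-negative, cKit+, Sca1-, CD34+, CD16/32+ progenitors) and 1 Lin-/CD11b+ library, both from 1 mouse per genotype in the deposited cell table. A supplementary list of cell numbers has the Lin-/CD11b+ WT and the GMP *Tet2* KO library the other way round, and the deposited table was followed. With 1 library per group there is no replicate check on any difference between genotypes or sorts, and no test was made.

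The 4 libraries held 8969 cells, with a median of 10417 to 18713 UMIs per cell. Cells were gated by marker transcripts counted per 10000 UMIs of the cell, which gave 3697 cells in 6 classes. They are called by their gates: *Hlf*/*Procr* (stem and early progenitor genes), *Cebpe* (granulocytic), *Ly86* (with *Mpo*, monocytic), *Siglech* (plasmacytoid dendritic lineage), *S100a8*-high (neutrophil) and *Fn1* (monocyte). The GMP sort held the first 3 classes (51 to 376 cells in WT and 78 to 567 in *Tet2* KO) and the Lin-/CD11b+ sort all 6 (76 to 289 and 81 to 288). No cell of either GMP library passed the *Siglech* or *Fn1* gate, against 76 to 195 cells per class in each Lin-/CD11b+ library. The *Siglech* class carried its lineage markers at a summed 5705 and 5039 counts per 1000000 UMIs (CPM) in WT and KO, none at 0, and the *S100a8*-high class its neutrophil markers at 410467 and 235046 CPM. In the GMP sort the *Hlf*/*Procr* cells held stem and early progenitor markers at 467 and 271 CPM but granulocytic progenitor markers at 14252 and 17111 CPM, and in the Lin-/CD11b+ sort 684 and 724 CPM beside 4662 and 3613 CPM, so that the gate does not mark stem cells alone in either. The 3' tags of *Tet2* lie outside the deleted part and check nothing. UMIs of a class were summed per library. In brackets after a level stands its exact 95% Poisson interval, and after a ratio or share an exact 95% binomial one. All of these cover counting error only, not the spread between mice.

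Taken as a sum, the 34 genes made up much the same part of the transcriptome in both genotypes. In the GMP sort the sum was 6925 CPM in WT and 6857 CPM in *Tet2* KO *Hlf*/*Procr* cells, 7756 and 6811 CPM in *Cebpe* cells, and 7103 and 7019 CPM in *Ly86* cells. In the Lin-/CD11b+ sort the WT and KO sums were 4874 and 4717 CPM (*Hlf*/*Procr*), 6754 and 6105 CPM (*Cebpe*), and 6191 and 6406 CPM (*Ly86*). The 3 other classes gave 4817 and 4633 CPM (*Siglech*), 5639.7 and 5564 CPM (*S100a8*-high), and 5885 and 5598 CPM (*Fn1*). The sum was lowest in *Siglech* and in Lin-/CD11b+ *Hlf*/*Procr* cells. The *Cebpe* class had the largest log2 ratios of the sum, KO over WT, at -0.19 [-0.21, -0.17] in the GMP sort and -0.15 [-0.19, -0.099] in the Lin-/CD11b+ sort, and the other 7 pairs lay between -0.072 and 0.049. The GMP sort gave higher sums than the Lin-/CD11b+ sort in all 3 classes found in both, in WT and in KO, and sort and library cannot be told apart there.

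Lower glycolysis held the largest part of the sum in 16 of the 18 library and class sums and pentose phosphate genes in the remaining ones, the *Siglech* cells of both genotypes. There lower glycolysis stood at 1923 CPM in WT and 1693 CPM in KO, against 2391 and 2296 CPM in Lin-/CD11b+ *Hlf*/*Procr* cells, while pentose phosphate genes reached 2098 and 2159 CPM against 1103 and 1097 CPM. Of these pentose phosphate sums *Pgls* alone held 1334 and 1263 CPM, against 326 and 368 CPM. Upper glycolysis was also lowest in *Siglech* cells, at 385 CPM in WT and 362 CPM in KO, and highest in GMP *Cebpe* cells, at 1318 and 1173 CPM. Genes of lactate were lowest in *Fn1* and *Siglech* cells. These sums run over different genes and are read between libraries and classes, not between steps as amounts of enzyme.

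**Figure D1:**
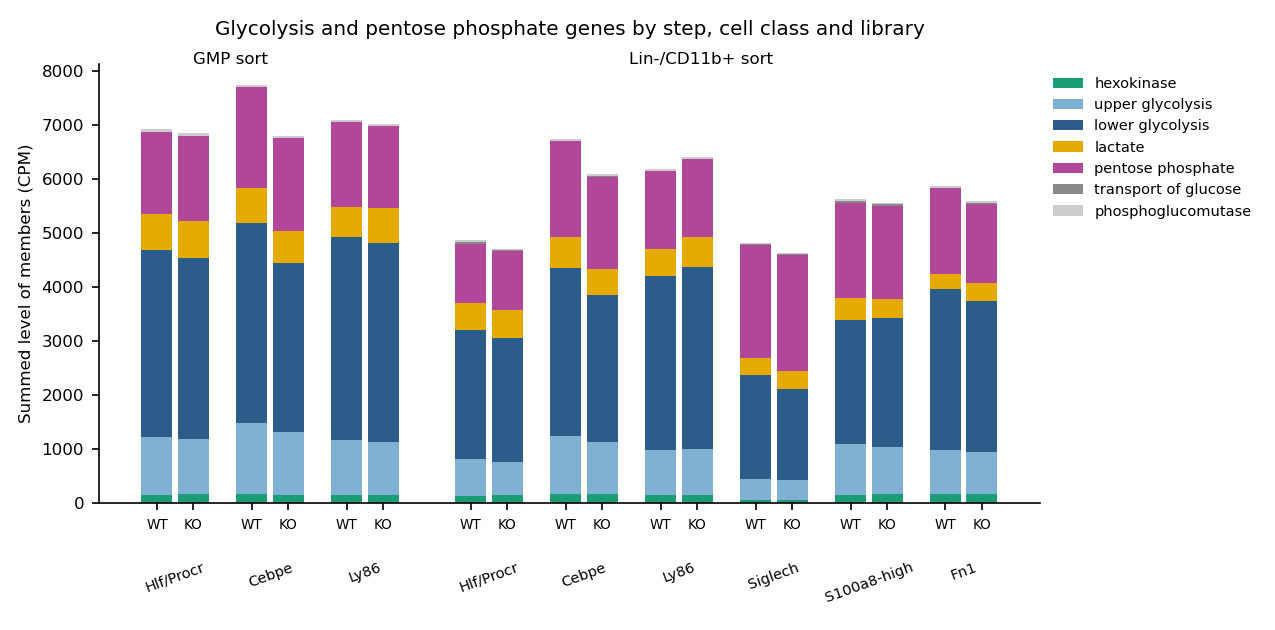
Stacked bars give the summed level in CPM of the 34 genes by step (colours) for each cell class, WT and *Tet2* KO side by side, in the GMP sort (left) and the Lin-/CD11b+ sort (right). The *Siglech* bars show the smallest lower glycolysis part (1923 and 1693 CPM) and the largest pentose phosphate part (2098 and 2159 CPM). *Pgls* alone held 1334 and 1263 CPM of the latter.

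The start regions of 6 members on which the results below turn are given first: *Slc16a3* and *Pfkfb4*, high in *S100a8*-high cells, *Pgls*, high in *Siglech* cells, and *Hk2*, *Hk3* and *Rpe*, which lay to one side between genotypes. The windows run from 250 bases before to 50 bases after the transcription start (RefSeq, GRCm38.p6) and are written 5' to 3' on the gene's strand. Capitals mark ACGTG or its reverse complement CACGT, the core bound by hypoxia-inducible factors, which also holds part of the E-box CACGTG of MYC and MLX partners. The windows are chr11:120948817-120949116 (+ strand, *Slc16a3*), chr9:108991652-108991951 (+, *Pfkfb4*), chr8:71591934-71592233 (+, *Pgls*), chr6:82774405-82774704 (-, *Hk2*), chr13:55021336-55021635 (-, *Hk3*) and chr1:66700581-66700880 (+, *Rpe*).
Slc16a3: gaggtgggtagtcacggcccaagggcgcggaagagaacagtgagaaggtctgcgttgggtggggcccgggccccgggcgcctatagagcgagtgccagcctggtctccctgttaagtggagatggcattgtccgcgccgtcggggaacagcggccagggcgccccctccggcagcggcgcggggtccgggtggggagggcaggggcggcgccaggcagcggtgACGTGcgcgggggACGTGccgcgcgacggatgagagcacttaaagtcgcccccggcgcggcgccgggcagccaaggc
Pfkfb4: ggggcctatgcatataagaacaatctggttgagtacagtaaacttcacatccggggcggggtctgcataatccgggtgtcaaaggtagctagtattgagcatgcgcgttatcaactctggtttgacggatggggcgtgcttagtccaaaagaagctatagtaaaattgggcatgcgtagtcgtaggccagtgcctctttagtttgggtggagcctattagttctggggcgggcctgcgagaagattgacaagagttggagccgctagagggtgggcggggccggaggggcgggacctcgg
Pgls: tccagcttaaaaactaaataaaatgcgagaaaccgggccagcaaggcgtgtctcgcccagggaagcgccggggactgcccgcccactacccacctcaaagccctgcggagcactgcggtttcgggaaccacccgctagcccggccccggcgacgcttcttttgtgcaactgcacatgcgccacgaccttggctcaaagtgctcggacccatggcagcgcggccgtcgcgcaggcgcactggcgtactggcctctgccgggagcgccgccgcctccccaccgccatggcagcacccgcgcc
Hk2: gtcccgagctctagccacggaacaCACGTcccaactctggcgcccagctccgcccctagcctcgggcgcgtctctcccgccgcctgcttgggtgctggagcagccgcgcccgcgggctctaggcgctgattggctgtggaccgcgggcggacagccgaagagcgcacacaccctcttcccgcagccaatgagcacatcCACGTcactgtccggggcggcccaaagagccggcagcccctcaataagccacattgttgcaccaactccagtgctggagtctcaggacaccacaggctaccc
Hk3: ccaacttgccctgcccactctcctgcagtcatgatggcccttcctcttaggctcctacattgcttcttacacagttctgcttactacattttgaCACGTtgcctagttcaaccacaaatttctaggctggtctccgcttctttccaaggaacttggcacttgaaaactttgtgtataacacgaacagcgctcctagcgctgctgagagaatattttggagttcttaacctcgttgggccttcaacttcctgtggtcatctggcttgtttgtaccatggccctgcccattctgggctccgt
Rpe: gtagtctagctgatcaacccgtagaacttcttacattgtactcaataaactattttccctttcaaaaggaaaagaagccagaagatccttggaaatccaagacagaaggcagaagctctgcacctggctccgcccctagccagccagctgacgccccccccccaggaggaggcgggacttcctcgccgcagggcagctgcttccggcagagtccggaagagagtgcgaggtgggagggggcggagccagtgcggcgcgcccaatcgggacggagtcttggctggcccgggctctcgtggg
The core stood 2 times in the *Slc16a3* and *Hk2* windows, 1 time in that of *Hk3*, and in none of the windows of *Pfkfb4*, *Pgls* and *Rpe*. Of the 34 members, 33 had a window (*Slc2a3* had none), with 46 windows in all. The core was found in 21 of these (45.7%), in 18 of the 33 members, against 6447 of 32851 windows of all genes (19.6%). CACGTG stood in 4 member windows (8.70%, *Ldha*, *Pfkfb3*, *Pfkm* and *Slc16a1*) and in 7.15% of all windows. Member windows were also richer in CG, with a median of 19.5 per window against 7 over all windows. The core itself holds a CG, and the part of base composition in these shares was not tested. A match is a description of letters, not a bound site.

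Cell classes were compared within the Lin-/CD11b+ library of each genotype, where all 6 classes shared a library. A ratio was formed for genes with at least 50 UMIs in both sums together, here called measured, and genes at 2-fold or more were counted. With TMM scaling (trimmed mean of M-values), log2 ratios in WT shifted by 0.18 for *Cebpe* and 0.20 for *Ly86* over *Hlf*/*Procr*, -0.22 for *Siglech* over *Hlf*/*Procr*, 0.70 for *S100a8*-high over *Cebpe* and -0.17 for *Fn1* over *Ly86*. In KO these shifts were 0.18, 0.18, -0.17, 0.34 and -0.080. The *Hlf*/*Procr* cells to which 3 classes are compared also held B and plasma cell markers, at a summed 4367 CPM in WT and 1369 CPM in KO, of which *Jchain* made up 4212 and 1007 CPM. Without cells with 20 or more UMIs of *Jchain*, or of *Mcpt8* and *Prss34* together, per 10000 (an alternative chosen after seeing the data), 92 of 97 WT and 220 of 224 KO cells stayed. The WT ratios over *Hlf*/*Procr* cells were then 1.60 (*Pgd*) and 1.16 (*Hk3*) in *Cebpe* cells, 1.38 (*G6pdx*), 1.40 (*Pgd*), -1.26 (*Hk1*) and -1.32 (*Pgm2*) in *Ly86* cells and 1.99 (*Pgls*) and -1.93 (*Aldoa*) in *Siglech* cells. The part of the granulocytic progenitor transcripts of the *Hlf*/*Procr* class in these ratios was not tested.

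*Cebpe* and *Ly86* cells had more transcripts of the oxidative pentose phosphate arm than *Hlf*/*Procr* cells. *Pgd*, 6-phosphogluconate dehydrogenase, stood at 50.5 CPM [38.1, 65.6] in WT *Hlf*/*Procr* cells, 149 CPM [129.7, 171] in *Cebpe* cells and 129 CPM [119, 141] in *Ly86* cells. In KO the values were 61.8, 131 and 135 CPM, so that both committed classes lay above *Hlf*/*Procr* cells in each genotype. *G6pdx*, glucose 6-phosphate dehydrogenase, which commits glucose to the pathway, was higher in *Ly86* cells only among these, with 24.3 (*Hlf*/*Procr*), 22.0 (*Cebpe*) and 60.9 CPM (*Ly86*) in WT and 25.2, 21.4 and 72.2 CPM in KO. In the GMP sort the *Ly86* class again held the most *G6pdx*, 61.7 CPM in WT and 67.5 CPM in KO against 16.1 and 25.1 CPM in *Cebpe* cells.

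Counted over the group, 2 of 23 measured members were 2-fold or more higher in WT *Cebpe* than in *Hlf*/*Procr* cells and none was lower, where 3.95% of all measured genes were higher and 7.47% lower. These were *Pgd* at a log2 ratio of 1.57 [1.13, 2.02] and *Hk3*, the hexokinase known from myeloid cells, at 1.25 [0.71, 1.81], from 35.2 CPM in *Hlf*/*Procr* and 83.5 CPM in *Cebpe* cells. The median member stood at 0.54 and the median gene at -0.030. In KO 3 of 24 were higher (all genes 2.49%) and none lower (all genes 10.8%), namely *Hk3* (1.10 [0.61, 1.59]), *Pgd* (1.08 [0.73, 1.43]) and *Rpia*, ribose 5-phosphate isomerase (1.11 [0.78, 1.45], 145 against 67.0 CPM). For *Ly86* over *Hlf*/*Procr* in WT, 2 of 25 members were higher (all genes 5.25%) and 2 lower (all genes 6.94%), with a median of 0.29 against -0.034 for all genes. *G6pdx* (1.32 [0.75, 1.95]) and *Pgd* (1.36 [0.96, 1.78]) were the higher ones. *Hk1*, the hexokinase of most tissues, at 16.4 against 37.0 CPM (-1.17 [-1.75, -0.57]), and *Pgm2*, a phosphoglucomutase, at 11.1 against 25.3 CPM (-1.18 [-1.89, -0.45]), were the lower ones. In KO 2 of 26 were higher (all genes 5.03%), again *G6pdx* (1.52) and *Pgd* (1.13), and 1 lower (all genes 8.38%), again *Hk1* (-1.30 [-1.78, -0.82], 16.3 against 40.0 CPM).

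*Siglech* cells held 1 pentose phosphate transcript at a level of its own. *Pgls*, which encodes 6-phosphogluconolactonase, the middle enzyme of the oxidative arm, stood at 1334 CPM [1247, 1426] in WT and 1263 CPM [1180.2, 1349.6] in KO *Siglech* cells. The other 16 sums ran from 234 CPM (*Fn1*, WT) to 511 CPM (Lin-/CD11b+ *Cebpe*, KO), so the *Siglech* class did not overlap any other. The log2 ratio over *Hlf*/*Procr* cells (326 CPM in WT and 368 CPM in KO) was 2.03 [1.86, 2.22] in WT and 1.78 [1.64, 1.92] in KO. It was spread over the cells of the class. The median cell held 12.9 *Pgls* UMIs per 10000 in WT and 13.3 in KO, where the medians of the other classes ran from 1.91 to 5.10, and after every cell had been thinned to 5000 UMIs, 82 of 82 WT and 80 of 83 KO cells had at least 1 *Pgls* UMI. The flanking enzymes did not follow it. *G6pdx* stood at 18.5 and 23.2 CPM and *Pgd* at 23.1 and 55.2 CPM in the same cells. *Pgls* (chr8:71592176-71601092, + strand) shares 776 exon bases with the neighbouring gene *Fam129c* (chr8:71597648-71607936, same strand, both GRCm38, GENCODE vM21). *Fam129c* was counted at 10.8 CPM in WT and 5.81 CPM in KO *Siglech* cells and at no more than 2.20 CPM in any other sum, and the split of shared reads between the 2 genes was not tested.

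Over the group, 1 of 18 measured members was 2-fold or more higher in WT *Siglech* than in *Hlf*/*Procr* cells (all genes 12.8%) and 3 were lower (all genes 5.68%). The median member lay at -0.57, on the other side of 0 from the median gene at 0.21. *Aldoa*, the main aldolase of these cells, had 78.6 CPM in *Siglech* and 286 CPM in *Hlf*/*Procr* cells of WT (-1.86 [-2.32, -1.43]), and 78.5 and 262 CPM in KO (-1.74 [-2.17, -1.34]). *Pgd* (-1.13 [-2.06, -0.29]) and *Hk1* (18.5 against 37.0 CPM, 12 against 41 UMIs) were the other lower members in WT. In KO 2 of 22 were higher (all genes 10.0%) and 6 lower (all genes 7.50%). *Pgd* was not past 2-fold there, and besides *Aldoa* the genes *Hk1* (-2.20), *Hk3* (-2.89), *Pfkl*, liver-type phosphofructokinase (-1.32), *Tpi1*, triosephosphate isomerase (-1.42), and *Ldhb*, a subunit of lactate dehydrogenase (-2.10), were lower, while *Pfkp*, the platelet-type phosphofructokinase, was higher (1.06 [0.28, 1.82]), beside *Pgls*. *Hk3* was nearly absent from the class, with 2 UMIs in 82 WT and 3 UMIs in 83 KO cells. Genes of S and G2/M phase were also highest in *Siglech* cells, with a summed 4375 CPM in WT and 4076 CPM in KO against 1549 to 2924 CPM in the other sums, and their part in these differences was not tested.

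*S100a8*-high cells stood apart from *Cebpe* cells by transporters and a regulator that were low in the latter. *Slc2a3*, the glucose transporter GLUT3, had 48.0 CPM [38.0, 59.96] from 78 UMIs in WT and 22.2 CPM [17.2, 28.2] from 66 UMIs in KO. In *Cebpe* cells of the same libraries it had 1.47 CPM (2 UMIs) and 2.92 CPM (3 UMIs). It was seen in 32.7% of WT and 18.1% of KO *S100a8*-high cells, against 1.22% to 12.4% of cells in the other classes of the WT library. *Slc2a1* and *Slc2a3* together held 22.5 CPM in WT and 19.6 CPM in KO Lin-/CD11b+ *Hlf*/*Procr* cells. In *S100a8*-high cells both together held 53.6 and 25.2 CPM. *Slc16a3*, the lactate exporter MCT4, had 40.0 CPM [30.9, 51.0] in WT and 32.6 CPM [26.4, 39.8] in KO *S100a8*-high cells, and 22.7 and 30.4 CPM in *Fn1* cells. All 14 other sums lay between 2.71 and 9.22 CPM. *Pfkfb4*, which sets the level of the activator of phosphofructokinase, followed the same order, with 26.5 and 19.2 CPM in *S100a8*-high cells, 22.7 and 15.8 CPM in *Fn1* cells and at most 7.27 CPM elsewhere, and the intervals of the *Fn1* sums overlapped those of the *S100a8*-high sums. The exporter of the progenitors was instead *Slc16a1* (MCT1), with 10.0 to 27.1 CPM in the *Hlf*/*Procr*, *Cebpe* and *Ly86* sums and 0.616 to 5.81 CPM in the other 3 classes. Of the UMIs of both exporters, *Slc16a3* held 98.5% [91.8, 99.96] in *S100a8*-high and 19.6% [9.36, 33.9] in *Cebpe* cells of WT, and 92.4% and 12% in KO.

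Against *Cebpe* cells of WT, 4 of 26 measured members were 2-fold or more higher (all genes 10.9%) and 5 lower (all genes 41.2%). The higher ones were *Slc2a3* (5.03 [3.13, 8.11]), *Slc16a3* (2.60 [1.59, 3.79]), *Pfkfb4* (2.37 [1.20, 3.77]) and *G6pdx* (2.20 [1.63, 2.81], 101 against 22.0 CPM), and the same 4 of 27 were past 2-fold in KO (all genes 13.9%), at 2.92, 3.48, 3.30 and 2.09. *Pfkl* (-1.48 [-2.32, -0.70]), *Rpia* (-1.21 [-1.59, -0.84]), *Tpi1* (-1.19 [-1.42, -0.95]), *Pgam1*, phosphoglycerate mutase (-1.16 [-1.36, -0.97]), and *Pgls* (-1.01) were the lower ones, and of these *Pfkl* was past 2-fold in KO (-1.07, all genes 16.5%). The median member lay at -0.22 and the median gene at -0.75. With TMM scaling the member median was 0.47 and 5 members, both directions together, were past 2-fold. The direction of the group thus depends on the scaling, while *Slc2a3*, *Slc16a3*, *Pfkfb4* and *G6pdx* lay above 0 under every alternative that gave a value. In KO the member median was -0.12 and with TMM scaling 0.22. *S100a8* alone took 186544 CPM of the WT *S100a8*-high sum and 665 CPM of the *Cebpe* sum.

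*Fn1* cells resembled the *S100a8*-high class in *G6pdx*, with 127 CPM [99.7, 159.9] in WT and 85.8 CPM [72.2, 101] in KO. Against *Ly86* cells of WT, 1 of 24 members was higher (*G6pdx*, 1.06 [0.67, 1.44], all genes 10.7%) and 2 lower (all genes 11.3%). The lower ones were *Ldha*, the lactate dehydrogenase subunit of glycolytic cells, at 214 against 444 CPM (-1.05 [-1.33, -0.79]), and *Slc16a1* (2 against 51 UMIs, -1.82 [-4.91, 0.10]). *Ldha* stood at 265 against 511 CPM in KO, not past 2-fold. In KO 1 of 26 was higher (all genes 11.2%) and 2 lower (all genes 7.90%), with *Slc16a3* (2.02 [1.33, 2.73], 30.4 against 7.51 CPM) the higher one and *Hk3* (-1.42 [-2.05, -0.84]) and *Slc16a1* (-1.42 [-2.82, -0.26]) the lower ones. The member median was -0.13 in WT and -0.24 in KO, against 0.025 and 0.011 for all genes. *Taldo1*, transaldolase, was highest in *Fn1* (636 and 585 CPM) and *S100a8*-high cells (598 and 536 CPM), and in the other 14 sums lay between 248 and 498 CPM.

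**Figure D2:**
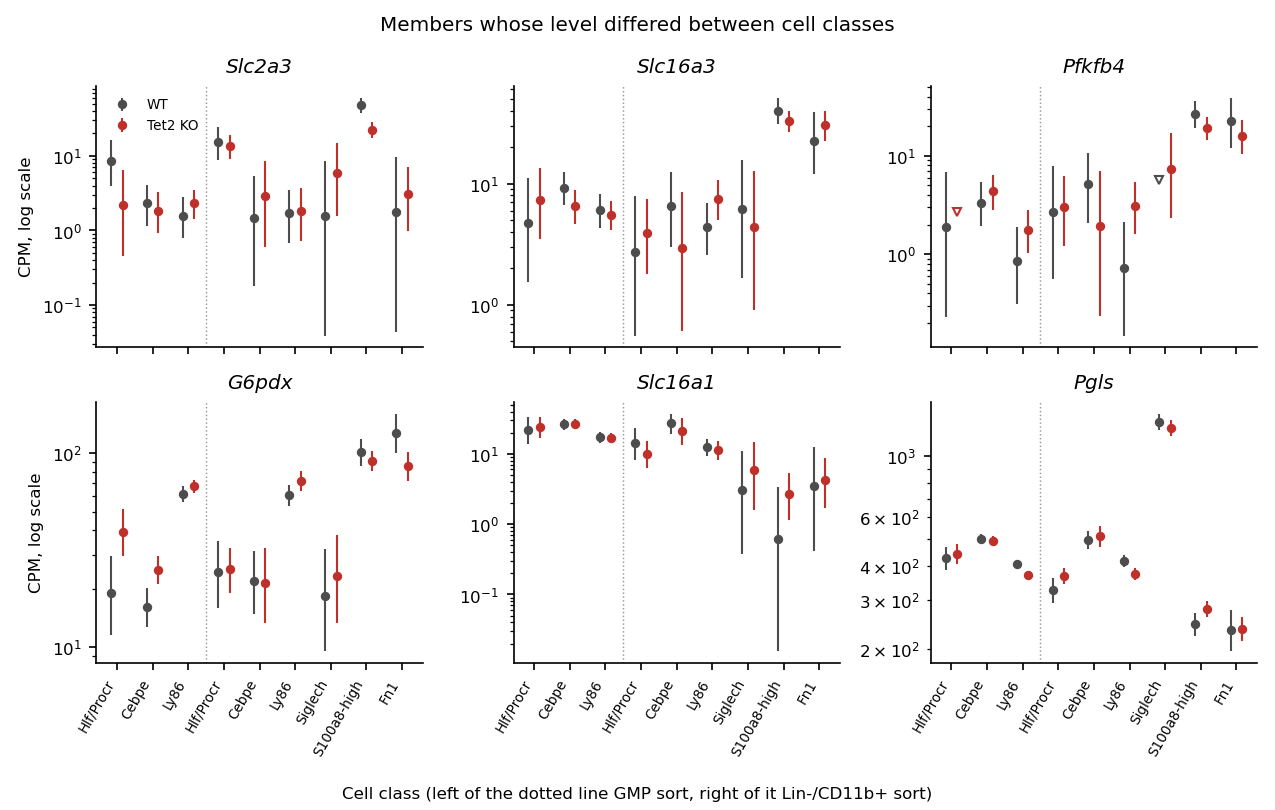
Levels of 6 members (CPM, log scale) in each cell class, left of the dotted line in the GMP sort and right of it in the Lin-/CD11b+ sort, with WT in grey and *Tet2* KO in red, bars for the exact 95% Poisson interval and open triangles for 0 UMIs drawn at the upper limit. *Slc2a3* peaked in *S100a8*-high cells (48.0 and 22.2 CPM), *Slc16a3*, *Pfkfb4* and *G6pdx* were high in *S100a8*-high and *Fn1* cells, where *Slc16a1* was low, and *Pgls* peaked in *Siglech* cells.

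Between genotypes, WT and *Tet2* KO were compared in 9 pairs of sums, 6 in the Lin-/CD11b+ and 3 in the GMP sort, and members at 1.5-fold or more were counted. The pairs share 1 mouse per genotype and the libraries, so they are not independent of one another. Few members were past 1.5-fold. In the Lin-/CD11b+ sort these were 1 higher and 2 lower of 24 measured in *Hlf*/*Procr* cells (all genes 6.45% higher and 3.18% lower), none higher and 1 lower of 24 in *Cebpe* cells (3.82% and 5.36%), none of 27 in *Ly86* cells (5.69% and 2.68%), 1 higher and none lower of 15 in *Siglech* cells (4.04% and 4.82%), 2 higher and 1 lower of 27 in *S100a8*-high cells (38.0% and 3.56%) and 1 higher and 2 lower of 23 in *Fn1* cells (10.3% and 7.05%). In the GMP sort they were 3 higher and none lower of 24 in *Hlf*/*Procr* cells (3.92% and 8.36%), 1 higher and none lower of 29 in *Cebpe* cells (2.63% and 3.99%), and 2 higher and 1 lower of 30 in *Ly86* cells (2.40% and 4.00%). *S100a8*-high cells had 2 of 27 members higher where 38.0% of genes were. GMP *Hlf*/*Procr* cells had 3 of 24 higher where 3.92% of genes were. In the other pairs there were at most 2 members in a direction.

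The member medians (KO over WT, log2) lay near 0 and near those of all genes in most pairs. They were 0.0037 (*Hlf*/*Procr*, all genes 0.041), -0.13 (*Cebpe*, -0.037), 0.061 (*Ly86*, 0.059), 0.11 (*Siglech*, 0.0088) and -0.10 (*Fn1*, -0.011) in the Lin-/CD11b+ sort, and -0.0044 (*Hlf*/*Procr*, -0.047), -0.17 (*Cebpe*, -0.037) and -0.037 (*Ly86*, -0.0087) in the GMP sort. *Cebpe* cells had the lowest medians in both sorts, with 5 of 24 and 7 of 29 measured members above 0. The *S100a8*-high class was the exception, with a member median of 0.029 and a median of all genes of 0.45. With TMM scaling, which shifted this pair by -0.42, the member median was -0.39. The neutrophil markers of the class took 410467 CPM in WT and 235046 CPM in KO and the granulocytic progenitor markers 3059.7 and 6199 CPM. Monocyte markers took 947 and 2081 CPM, monocytic progenitor markers 505 and 1250 CPM and basophil and mast cell markers 29.6 and 233 CPM. B and plasma cell markers went the other way (1752 and 973 CPM). The part of these differences in cell state and cell content in the ratios was not tested. With *S100a9* at 100 or more per 10000 required as well, an alternative chosen after seeing the data, 161 of 165 WT and 203 of 288 KO cells stayed, and the member median was -0.13. In the other 8 pairs TMM moved log2 ratios by less than 0.1.

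**Figure D3:**
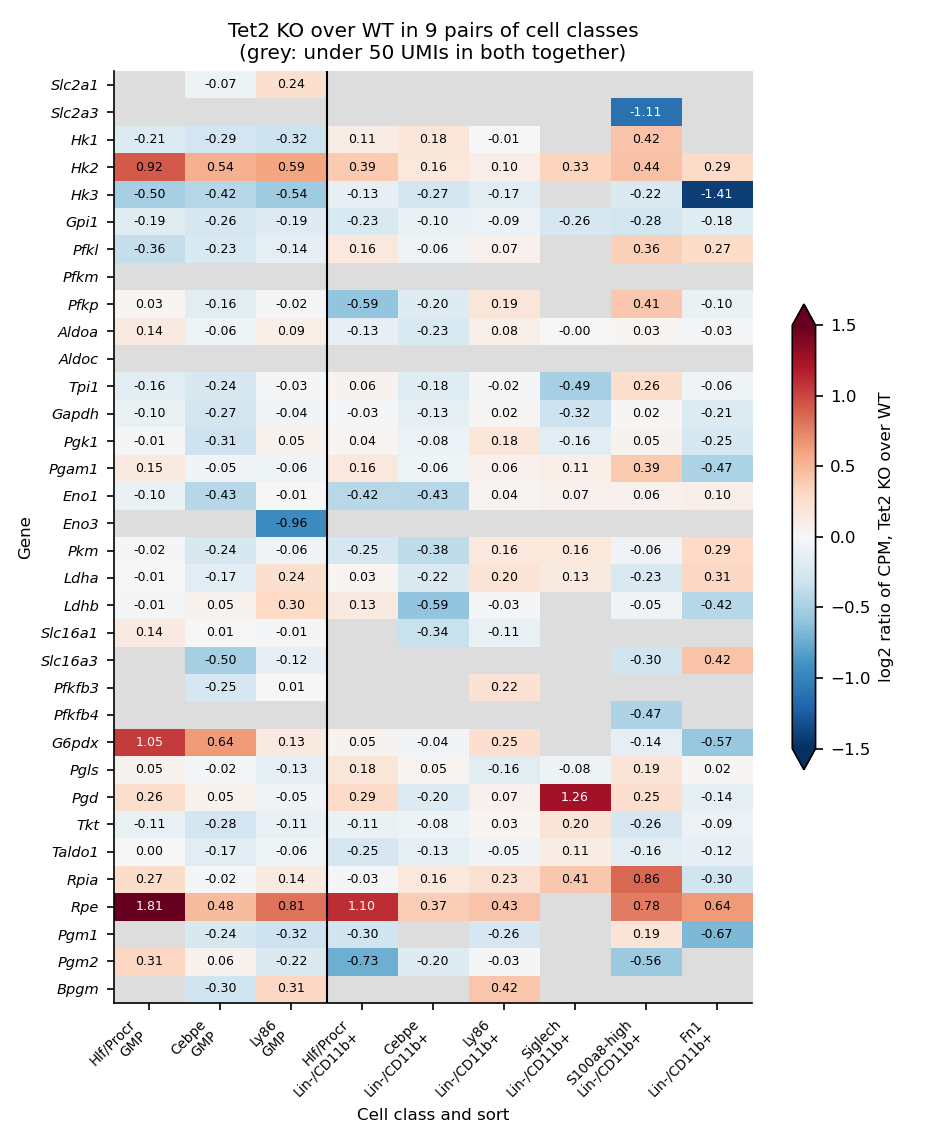
Colours give the log2 ratio, KO against WT, of 1 member's CPM (rows) in 1 cell class and sort (columns, GMP left of the line), red for higher and blue for lower in KO, and grey where both sums together held under 50 UMIs. Most values are pale, *Rpe* and *Hk2* are red in each measured column and *Gpi1* and *Hk3* blue, with the extremes at 1.81 (*Rpe*, GMP *Hlf*/*Procr*) and -1.41 (*Hk3*, *Fn1*).

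In the GMP sort hexokinase differed between genotypes in its isozymes and little in its total. The 3 isozymes together gave 153 and 163 CPM in WT and KO *Hlf*/*Procr* cells of the GMP sort, 164 and 156 CPM in *Cebpe* cells and 154 and 149.5 CPM in *Ly86* cells. *Hk2*, the inducible hexokinase that docks on mitochondria, stood at 41.0 CPM [29.7, 55.2] in WT and 77.5 CPM [63.5, 93.8] in KO *Hlf*/*Procr* cells, at 45.3 and 65.6 CPM in *Cebpe* cells, and at 49.8 and 74.9 CPM in *Ly86* cells. The KO library was the higher one each time and the intervals did not overlap in any of the 3 pairs. Log2 ratios were 0.92 [0.40, 1.47], 0.54 [0.29, 0.78] and 0.59 [0.40, 0.78], the first and the last past 1.5-fold. *Hk3* went the other way, with 75.3 and 53.4 CPM (*Hlf*/*Procr*, -0.50 [-0.97, -0.018]), 86.1 and 64.1 CPM (*Cebpe*, -0.42 [-0.63, -0.22]) and 81.6 and 56.2 CPM (*Ly86*, -0.54 [-0.71, -0.36]), none past 1.5-fold. Basophil and mast cell markers summed to 196 CPM in WT and 636 CPM in KO GMP *Hlf*/*Procr* cells. Monocyte markers summed to 158 and 374 CPM and dendritic cell markers to 19.1 and 339 CPM, while stem and early progenitor markers were lower in KO (467 and 271 CPM). The part of these differences in the *Hk2*, *Hk3*, *Rpe* and *G6pdx* ratios of this pair was not tested beyond leaving out cells, as follows. The cells left out were not chosen by monocyte or dendritic cell markers. Without cells with 20 or more UMIs of *Jchain*, or of *Mcpt8* and *Prss34* together, per 10000 (an alternative chosen after seeing the data), the *Hk2* ratio there was 0.92.

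As shares of hexokinase UMIs, *Hk2* made up 26.7% [20.1, 34.2] in WT and 47.5% [40.8, 54.3] in KO *Hlf*/*Procr* cells of the GMP sort, 27.6% [24.5, 30.9] and 42.0% [38.8, 45.2] in *Cebpe* cells, and 32.2% [29.5, 35.1] and 50.1% [47.4, 52.7] in *Ly86* cells. In WT of this sort *Hk3* was the leading isozyme in all 3 classes (49.1%, 52.6% and 52.9%), and in KO *Hk2* was, by a narrow margin in *Cebpe* cells (42.0% against 41.0%). The Lin-/CD11b+ sort had smaller differences. The *Hk2* share was 43.3% in WT and 50% in KO *Hlf*/*Procr* cells, 40.3% and 46.0% in *Cebpe* cells, 55.1% and 58.9% in *Ly86* cells, and 65.9% and 80% in *Siglech* cells. It was 47.5% [41.0, 54.0] and 56.3% [51.8, 60.6] in *S100a8*-high cells and 66.3% [55.9, 75.7] and 80.6% [75.4, 85.1] in *Fn1* cells. All of these intervals overlap between genotypes in the Lin-/CD11b+ sort. In the 3 classes found in both sorts, the share of the GMP WT library lay below that of GMP KO and also below those of Lin-/CD11b+ WT and KO. The larger difference in the GMP sort thus goes with the GMP WT library, and library and genotype cannot be told apart there. The KO share was the higher one in all 9 pairs, but with Leiden clusters in place of gates it was 78.3% in WT and 74.7% in KO *Fn1* cells. *Hk1* held 6.32% to 29.3% of hexokinase UMIs and was highest in Lin-/CD11b+ *Hlf*/*Procr* and WT *Siglech* cells.

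**Figure D4:**
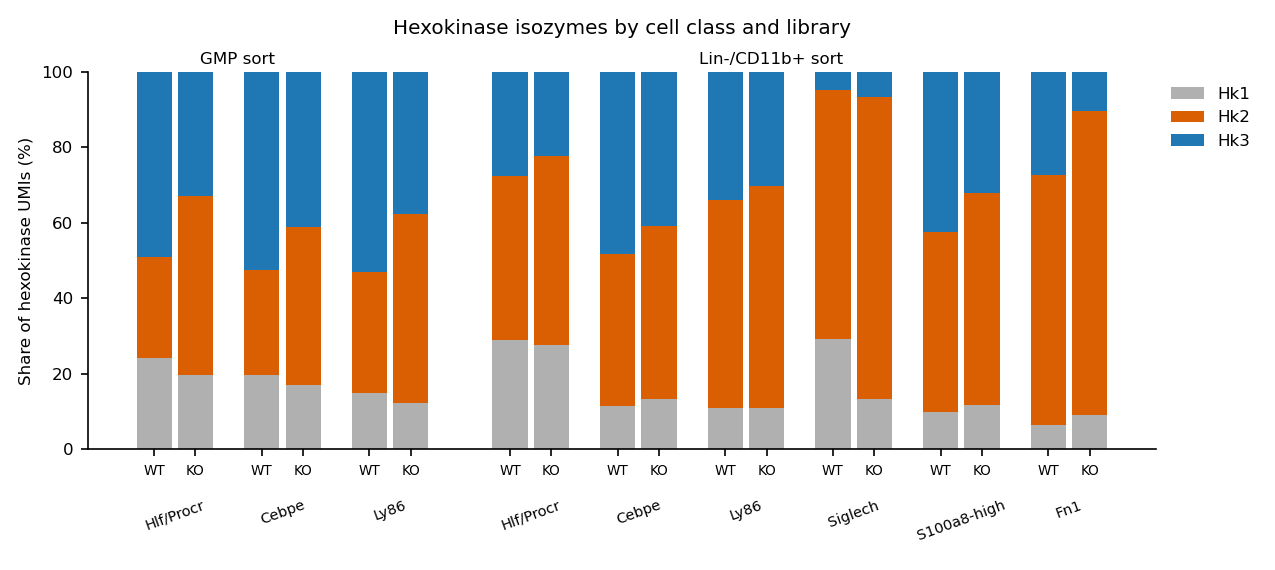
Stacked bars give the share in percent of hexokinase UMIs held by *Hk1*, *Hk2* and *Hk3* for each cell class in WT and *Tet2* KO, in the GMP sort (left) and the Lin-/CD11b+ sort (right). The *Hk2* part is larger in KO in each pair, from 32.2% to 50.1% in GMP *Ly86* cells, for example, and *Hk3* is close to absent from *Siglech* cells.

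Outside the GMP sort, hexokinase totals in WT and KO were 127 and 144 CPM (*Hlf*/*Procr*), 173 and 169 CPM (*Cebpe*) and 151 and 150 CPM (*Ly86*). They were 63.2 and 65.4 CPM in *Siglech*, 148 and 169 CPM in *S100a8*-high and 166 and 166 CPM in *Fn1* cells. *Hk2* was closer between genotypes in this sort. It had 55.0 CPM in WT and 72.2 CPM in KO *Hlf*/*Procr* cells, 69.6 and 77.9 CPM in *Cebpe*, 82.9 and 88.5 CPM in *Ly86*, 41.6 and 52.3 CPM in *Siglech*, 70.2 and 95.1 CPM in *S100a8*-high and 109.8 and 134 CPM in *Fn1* cells. Log2 ratios ran from 0.096 to 0.44, and the interval left out 0 in *S100a8*-high cells only (0.44 [0.12, 0.76]). That ratio was -0.0034 without the 20 most abundant genes in the total, and *Hk2* was lower in KO in Lin-/CD11b+ *Hlf*/*Procr* cells with Leiden clusters (-0.048) and in *Cebpe* (-0.016) and *Ly86* (-0.13) cells of that sort after thinning. *Hk3* was past 1.5-fold in *Fn1* cells alone, with 45.3 CPM [29.6, 66.4] (26 UMIs) in WT and 17.0 CPM [11.3, 24.6] (28 UMIs) in KO, a log2 ratio of -1.41 [-2.23, -0.58]. With Leiden clusters in place of gates this ratio was 0.058, so the difference rests on how *Fn1* cells were chosen. The KO *Fn1* cells also held more B and plasma cell markers (423 CPM in WT and 1853 CPM in KO, of which *Jchain* 40.1 and 1616 CPM), more neutrophil markers (392 and 1505 CPM) and more dendritic cell markers (502 and 1227 CPM). Without the *Jchain* or *Mcpt8* and *Prss34* cells the *Fn1* ratios were -1.46 (*Hk3*), 0.67 (*Rpe*) and -0.65 (*Pgm1*), and the part of the neutrophil and dendritic transcripts in the *Fn1* ratios was not tested. In the other 4 measured Lin-/CD11b+ pairs *Hk3* had log2 ratios of -0.27 to -0.13, all with intervals that held 0.

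*Rpe* encodes ribulose 5-phosphate epimerase of the non-oxidative arm and was the member most often past 1.5-fold. It stood at 11.4 CPM [5.91, 19.98] in WT and 40.2 CPM [30.3, 52.4] in KO *Hlf*/*Procr* cells of the GMP sort, 25.3 and 35.2 CPM in *Cebpe* cells, and 17.4 and 30.5 CPM in *Ly86* cells. In the Lin-/CD11b+ sort it had 9.92 and 21.3 CPM (*Hlf*/*Procr*), 25.6 and 33.1 CPM (*Cebpe*), 16.9 and 22.8 CPM (*Ly86*), 18.5 and 29.1 CPM (*Siglech*, 12 and 20 UMIs), 24.0 and 41.3 CPM (*S100a8*-high) and 22.7 and 35.3 CPM (*Fn1*). The KO level was above the WT level in all 9 pairs. Log2 ratios past 1.5-fold were 1.81 [0.90, 2.85] (GMP *Hlf*/*Procr*, 12 against 55 UMIs), 0.81 [0.50, 1.13] (GMP *Ly86*), 1.10 [0.14, 2.20] (Lin-/CD11b+ *Hlf*/*Procr*, 11 against 49 UMIs), 0.78 [0.25, 1.34] (*S100a8*-high) and 0.64 [-0.25, 1.63] (*Fn1*, an interval that holds 0). The other 3 measured pairs lay at 0.37 (Lin-/CD11b+ *Cebpe*), 0.43 (Lin-/CD11b+ *Ly86*) and 0.48 (GMP *Cebpe*). *Rpe* stayed above 0 in every measured pair under the alternatives that gave a value, with 1 exception, Lin-/CD11b+ *Ly86* cells thinned to 5000 UMIs (-0.13). For GMP *Hlf*/*Procr* cells doubled gates, halved gates and Leiden clusters gave no value. In *S100a8*-high cells, where the median gene stood at 0.45, the *Rpe* ratio ran from 0.34 to 0.88 over the alternatives. The lower end is below 1.5-fold.

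Among all genes measured in at least 8 of the 9 pairs, 3.78% lay above 0 in each measured pair and 0.900% below, and the same held for 4 of the 21 members measured that often, named for this after their values were seen. These were *Rpe* and *Hk2* above 0, and *Hk3* and *Gpi1*, glucose 6-phosphate isomerase, below. *Hk3* had exceptions besides the *Fn1* cells, at 0.19 in Lin-/CD11b+ *Hlf*/*Procr* cells with Leiden clusters, 0.37 in Lin-/CD11b+ *Ly86* cells with doubled gate thresholds and 0.50 in *Siglech* cells without the filter on low counts. *Gpi1* differed little, with log2 ratios of -0.28 to -0.091. Its largest levels were 681 CPM in WT and 570.1 CPM in KO GMP *Cebpe* cells (-0.26 [-0.33, -0.19]). In Lin-/CD11b+ *Cebpe* cells *Gpi1* stood at 0.060 with Leiden clusters and 0.00023 after thinning. Since all pairs come from 1 mouse per genotype, a difference between these mice or libraries and the genotype cannot be told apart.

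**Figure D5:**
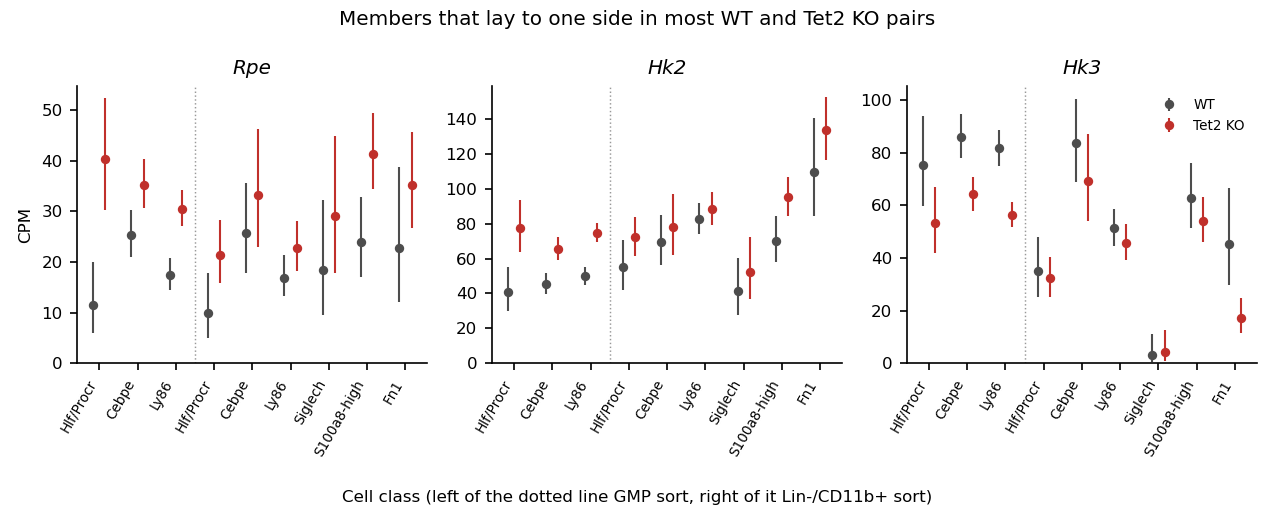
Levels of *Rpe*, *Hk2* and *Hk3* (CPM, linear scale) in WT (grey) and *Tet2* KO (red) for each cell class, GMP sort left of the dotted line and Lin-/CD11b+ sort right of it, with exact 95% Poisson intervals. *Rpe* and *Hk2* lie higher in KO in each pair, *Hk3* lies lower in 8 of 9, and the intervals of many pairs overlap.

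Other members of the pentose phosphate pathway differed between genotypes in single classes. *G6pdx* was higher in KO progenitors of the GMP sort, with 19.1 CPM [11.6, 29.4] in WT and 39.5 CPM [29.7, 51.5] in KO *Hlf*/*Procr* cells (1.05 [0.29, 1.87]) and 16.1 and 25.1 CPM in *Cebpe* cells (0.64 [0.23, 1.05]). In KO *Hlf*/*Procr* cells 3 of 78 cells held 29.6% of its UMIs. In the same classes of the Lin-/CD11b+ sort the log2 ratios were 0.052 and -0.037, and in *Fn1* cells it ran from 127 CPM in WT to 85.8 CPM in KO (-0.57 [-0.99, -0.14]), beside the differences in B and plasma, neutrophil and dendritic cell markers of that class. *Pgd* was higher in KO *Siglech* cells, at 55.2 CPM [39.1, 75.8] (38 UMIs) against 23.1 CPM [12.9, 38.1] (15 UMIs), a log2 ratio of 1.26 [0.36, 2.23]. Granulocytic progenitor markers of this class summed to 196 CPM in WT and 654 CPM in KO (*Mpo* 53.9 and 269 CPM, *Elane* 30.8 and 163 CPM), and their part in the *Pgd* ratio was not tested. *Rpia* stood at 56.0 CPM in WT and 101 CPM in KO *S100a8*-high cells (0.86 [0.51, 1.21]), and with TMM scaling this ratio was below 1.5-fold (0.43). *Tkt*, transketolase, and *Taldo1* had 7 of 9 ratios below 0, between -0.28 and 0.20.

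Among glucose transport, glycolysis, lactate and phosphoglucomutase genes, 6 members besides the hexokinases were past 1.5-fold, in 1 pair each. *Slc2a3* was lower in KO *S100a8*-high cells (22.2 against 48.0 CPM, -1.11 [-1.61, -0.62], and -0.75 with *S100a9* required as well). *Pfkp* and *Pgm2* were lower in KO Lin-/CD11b+ *Hlf*/*Procr* cells, *Pfkp* with 17.4 against 26.2 CPM (-0.59 [-1.31, 0.15]) and *Pgm2* with 15.2 against 25.3 CPM (-0.73 [-1.49, 0.042]). Both intervals held 0, and with Leiden clusters the *Pfkp* ratio was 0.16. B and plasma cell markers summed to 4367 CPM in WT and 1369 CPM in KO *Hlf*/*Procr* cells, and without the *Jchain* or *Mcpt8* and *Prss34* cells *Pfkp* stood at -0.51, *Pgm2* at -0.86 and *Rpe* at 0.99. *Ldhb* was lower in KO Lin-/CD11b+ *Cebpe* cells (43.8 against 65.9 CPM, -0.59 [-1.14, -0.058]) and at 0.10 with Leiden clusters. Basophil and mast cell markers of this class summed to 180 CPM in WT and 531 CPM in KO. Without the *Jchain* or *Mcpt8* and *Prss34* cells no member was past 1.5-fold in this pair. *Pgm1* was lower in KO *Fn1* cells (21.9 against 34.9 CPM, -0.67 [-1.498, 0.20]) and higher with Leiden clusters (0.61). *Eno3*, the muscle enolase, was lower in KO GMP *Ly86* cells, at 2.51 against 4.88 CPM (24 and 34 UMIs, -0.96 [-1.78, -0.16]).

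The abundant enzymes of the pathway varied between classes more than between genotypes. *Gapdh*, glyceraldehyde 3-phosphate dehydrogenase and the most abundant member in the median, ran from 796 to 1472 CPM over the 18 sums, and its KO over WT log2 ratios from -0.32 to 0.019. *Pkm*, pyruvate kinase, ran from 200.3 to 610.1 CPM, *Pgam1* from 176 to 635 CPM, *Aldoa* from 78.5 to 558 CPM, *Eno1*, the main enolase, from 165 to 518 CPM, *Tpi1* from 102 to 389 CPM and *Pgk1*, phosphoglycerate kinase, from 142 to 372 CPM. None of these 7 was past 1.5-fold in any genotype pair. *Ldha* was highest in GMP *Hlf*/*Procr* cells, at 614 CPM in WT and 609 CPM in KO, and lowest in *Fn1* cells, at 214 and 265 CPM. *Ldhb* held 3.26% to 15.2% of lactate dehydrogenase UMIs. Of the phosphofructokinases, *Pfkl* ran from 12.3 to 59.1 CPM and *Pfkp* from 14.2 to 36.6 CPM. *Pfkl* held 62.8% of their UMIs in WT Lin-/CD11b+ *Hlf*/*Procr* and 38.2% in *Fn1* cells, where *Pfkp* held 61.8%.

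The remaining members were rare. *Pfkm*, the muscle phosphofructokinase (0 to 6.96 CPM), and *Aldoc*, the brain aldolase (0 to 6.09 CPM), were too low for a ratio in any genotype pair. *Slc2a1*, the glucose transporter GLUT1, ran from 2.86 to 13.4 CPM, with its highest level in KO *Fn1* cells (22 UMIs, against 2 UMIs and 3.49 CPM in WT). *Pfkfb3*, which like *Pfkfb4* makes the sugar phosphate that activates phosphofructokinase, ran from 1.74 to 12.5 CPM, *Bpgm*, bisphosphoglycerate mutase, from 3.02 to 16.2 CPM and *Eno3* from 0.733 to 14.2 CPM. A 3' count of transcripts is not divided by gene length, and 5 members have near copies in the genome (11 pseudogenes named after them in GENCODE vM21), so the level of 1 gene against another is uncertain. *Pgm1* and *Pgm2* are given under the symbols of the count table, since annotations exchange them.

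Genes of the surrounding pathways were counted over lists chosen with earlier results of these data known, and the genes named from them were picked after their values were seen. Of 30 genes of pyruvate entry and the TCA cycle, none or 1 was past 1.5-fold in either direction in 8 of the 9 genotype pairs. In *S100a8*-high cells 7 of 23 measured were higher in KO, where 38.0% of all genes were, and none lower, with a list median of 0.52 beside 0.45 for all genes. Against *Cebpe* cells of WT, 12 of 24 were 2-fold or more lower in *S100a8*-high cells, where 41.2% of all genes were, and none higher, with a median of -1.01 beside -0.75, and in KO 6 of 26 were lower (all genes 16.5%) and 1 higher (all genes 13.9%). *Suclg2*, a subunit of succinyl-CoA ligase, was among the lowest in WT (4.93 against 52.0 CPM). In *Fn1* against *Ly86* cells 4 of 26 were lower in WT (all genes 11.3%) and 3 of 26 in KO (all genes 7.90%).

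A further enzyme of glucose phosphorylation stood out in *S100a8*-high cells. *Adpgk*, the ADP-dependent glucokinase, from a list of 20 other isozymes (17 in the table), had 279 against 19.8 CPM in *S100a8*-high and *Cebpe* cells of WT, and 181 CPM in KO *S100a8*-high cells. It was the 1 measured gene of that list in this pair. *Slc2a6*, a lysosomal sugar transporter of the same list, had 48.8 against 9.42 CPM in *Fn1* and *Ly86* cells of WT. It was the 1 higher gene of 5 measured there (all genes 10.7%), and none was lower. Of the 15 genes of glycogen and gluconeogenesis, 13 were in the table. *Pygl*, the phosphorylase that frees glucose 1-phosphate from glycogen, and *Ugp2*, which feeds its synthesis, were higher in *S100a8*-high than in *Cebpe* cells (168 against 40.3 CPM and 67.1 against 24.9 CPM). *G6pc3*, glucose 6-phosphatase, was lower (9.85 against 102 CPM), as was *Pck2* (11.1 against 24.2 CPM). Of 7 measured genes of this list in WT, 2 were thus 2-fold or more higher (all genes 10.9%) and 2 lower (all genes 41.2%). In the 9 genotype pairs this list had at most 1 gene past 1.5-fold in either direction, beside the shares of all genes given above for each pair.

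Of the list of 6 cytosolic NADPH genes, 2 of 5 measured were higher in WT *Cebpe* (all genes 3.95%) and 2 of 5 in WT *Ly86* (all genes 5.25%) than in *Hlf*/*Procr* cells, none lower. These were *Idh1*, cytosolic isocitrate dehydrogenase (55.0 against 17.1 CPM and 74.7 against 17.1 CPM), and *Gsr*, which reduces glutathione with NADPH (267 against 51.4 CPM and 182 against 51.4 CPM), in both classes. In *S100a8*-high cells *Nadk*, which makes NADP, was higher than in *Cebpe* cells (72.1 against 24.9 CPM) and *Idh1* lower (17.9 against 55.0 CPM). They were the 1 higher (all genes 10.9%) and the 1 lower (all genes 41.2%) of 4 measured in WT. *Idh1* was also the 1 gene of 4 measured past 1.5-fold between genotypes in *S100a8*-high cells (55.8 against 17.9 CPM in KO and WT), where 38.0% of all genes were higher. Of 22 regulators of glycolysis, *Hif1a*, the hypoxia-inducible factor, had 43.6 against 15.9 CPM in *Fn1* and *Ly86* cells of WT, *Txnip*, an inhibitor of glucose uptake, 61.0 against 19.1 CPM, and *Myc*, which drives glycolytic genes, 10.5 against 34.8 CPM. Over the 9 regulators measured there, 2 were higher (all genes 10.7%) and 2 lower (all genes 11.3%). *Myc* was also lower in WT *S100a8*-high than in *Cebpe* cells (9.24 against 71.8 CPM) and in *Siglech* than in *Hlf*/*Procr* cells (12.3 against 90.2 CPM). In these comparisons 1 of 5 (all genes 41.2%) and 2 of 3 measured regulators (all genes 5.68%) were lower, and none was higher. Between genotypes at most 3 regulators were past 1.5-fold in either direction in a pair. In *S100a8*-high cells 3 of 7 measured were higher in KO (all genes 38.0%), and in GMP *Ly86* cells 3 of 17 were lower (all genes 4.00%), among them *Vegfa*, a target of hypoxia-inducible factors (1.57 against 5.74 CPM).

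The 20 genes of S and G2/M phase differed between genotypes in some of the same pairs. In GMP *Hlf*/*Procr* cells 7 of 20 were lower in KO by 1.5-fold or more (all genes 8.36%), with a list median of -0.36 beside -0.047 for all genes. In Lin-/CD11b+ *Cebpe* cells 5 of 20 were lower (all genes 5.36%), with medians of -0.41 and -0.037, and in *Fn1* cells 5 of 20 (all genes 7.05%), with -0.43 and -0.011. In *S100a8*-high cells 5 of 20 were higher where 38.0% of all genes were, and the list median of 0.33 lay below that of all genes, 0.45. *Rpe* and *Hk2* were higher in KO in the same GMP *Hlf*/*Procr* pair. The part of cell cycle in the member ratios was not tested.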

How the data were processed

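Single bone marrow cells were profiled by 10x Genomics 3' RNA sequencing. The authors counted UMIs with Cell Ranger 3.1.0 on mm10 (submitters' processing notes), used Seurat, and deposited raw counts per gene and cell with a table naming each cell's library. The stated cell filter was a minimum of 200 genes and 5000 UMIs and a mitochondrial share below 5%, but 413 deposited cells are at 5% or more. The sources differ on the kit version. All deposited cells were used (lowest 5003 UMIs), and 37 barcodes occur in more than 1 library. Doublets were kept, and the 5% of cells with most UMIs were left out as an alternative.

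Gates were applied in this order, per 10000 UMIs: *S100a8* at 100 or more, *Siglech* at 2 or more, *Fn1* at 5 or more with more *Fn1* than *Mpo* UMIs, *Cebpe* at 2 or more, *Ly86* at 2 or more with *Mpo* at 5 or more, and at least 1 UMI of *Hlf* or *Procr*. The 24 cells with both *Cebpe* and *Ly86* at 2 or more were left out and 5248 fell in no gate. Sums of at least 50 cells were compared. The text names members past 1.5-fold (genotypes) or 2-fold (classes), for more than 8 the 4 highest and 4 lowest, and the most abundant member of each step. Members, gates and lists were chosen with earlier results of these data known.

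Ratios of CPM have exact conditional binomial intervals, levels exact Poisson and shares exact binomial ones, all at 95% (Python 3.11.15, numpy 2.4.6, scipy 1.17.1, pandas 2.3.3). Ratio intervals were tested on simulated data and held the true value for 96.0% of 5583 genes in Lin-/CD11b+ *Hlf*/*Procr* cells, KO over WT. This checks the calculation and not the spread between mice. Alternatives were TMM factors (edgeR 4.0.16), a total without the 20 most abundant genes, no minimum of 50 UMIs, averaging over cells, doubled and halved gates, Leiden clusters (scanpy 1.11.5, leidenalg 0.10.2, 2000 variable genes, 30 components, resolution 0.8), fewer cells, and cells thinned to 5000 UMIs. Requiring *S100a9*, and leaving out *Jchain* or *Mcpt8* and *Prss34* cells, were chosen after seeing the data. RefSeq promoter windows were searched on both strands.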

Additional observations from a re-analysis of the deposited data

Results flagged for a closer look

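The GMP sort held 1 *S100a8*-high cell of 1258 in WT (0.0795%, exact 95% binomial interval 0.00201% to 0.442%) and 42 of 2719 in *Tet2* KO (1.54%, 1.12% to 2.08%). They are listed because they give a signal in cells that entered no comparison. In the 42 KO cells *Slc2a3* had 7.74 CPM (4 UMIs), *Slc16a3* 13.5 CPM (7 UMIs), *Pfkfb4* 13.5 CPM (7 UMIs) and *G6pdx* 25.2 CPM (13 UMIs). *Hk2* stood at 63.9 CPM and *Hk3* at 85.1 CPM, *Gpi1* at 673 CPM, *Aldoa* at 669 CPM and *Gapdh* at 1248 CPM. With 1 WT cell these levels have no counterpart in WT, and the difference in the share of cells was not tested across mice.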

How the results depend on the processing

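No paired analysis was possible because each genotype and sort had 1 library. The tally of alternative values covers only members past the fold in their comparison. Of these values, 590 kept their direction and size within counting error, 29 moved further and 4 turned. Those 4 came with Leiden clusters, KO over WT: *Hk3* (0.058) and *Pgm1* (0.61) in *Fn1* cells, *Ldhb* in Lin-/CD11b+ *Cebpe* cells (0.10) and *Pfkp* in Lin-/CD11b+ *Hlf*/*Procr* cells (0.16). Members not past the fold are outside this tally. Among them, *Hk2*, *Hk3*, *Rpe* and *Gpi1* changed sign under some alternatives in the pairs given above, not only with Leiden clusters. Of the 590, 62 came from dropping the filter on low counts, which cannot change the ratio of a measured member. With Leiden clusters 37 kept direction and size and 5 moved further, besides the 4 that turned. The *Siglech* class has no Leiden cluster of its own, and 20 comparisons under alternatives had fewer than 50 cells in a sum and gave no value. Counts of members are small, so that 1 gene moves them. Those below take higher and lower members together and stand without the share of all genes under the same alternative. They are therefore no result about the members. Where the minimum of 50 UMIs applies, a member that falls under it leaves the count whatever its ratio. *Hk2*, *G6pdx* and *Rpe* in GMP *Hlf*/*Procr* cells stood at 0.92, 0.76 and 1.81 or more in every alternative with a value. *Pgd* in *Siglech* cells stood at 1.18 or more. These members still drop out of some counts below. Counts that moved by over 1.5 times follow, for the Lin-/CD11b+ sort where no sort is named, and the cause was not tested.

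Without the filter on low counts the members past 1.5-fold between genotypes numbered 5 (*Hlf*/*Procr*), 5 (*Cebpe*), 3 (*Ly86*), 10 (*Siglech*), 7 (*S100a8*-high), 8 (*Fn1*), 9 (GMP *Hlf*/*Procr*) and 2 (GMP *Cebpe*). Those past 2-fold between classes numbered 6 for *Cebpe* over *Hlf*/*Procr* (WT), 8 for *Ly86* over *Hlf*/*Procr* (WT), 11 for *Siglech* over *Hlf*/*Procr* (WT), 8 for *Fn1* over *Ly86* (WT), 6 for *Cebpe* over *Hlf*/*Procr* (KO), 5 for *Ly86* over *Hlf*/*Procr* (KO), 13 for *Siglech* over *Hlf*/*Procr* (KO), 10 for *S100a8*-high over *Cebpe* (KO) and 5 for *Fn1* over *Ly86* (KO). After thinning to 5000 UMIs the members past 1.5-fold between genotypes numbered 1 (*Hlf*/*Procr*), 2 (*Cebpe*), 1 (*Ly86*), 0 (*Siglech*), 1 (*Fn1*), 0 (GMP *Hlf*/*Procr*) and 3 (GMP *Cebpe*). Those past 2-fold between classes numbered 2 for *Siglech* over *Hlf*/*Procr* (WT), 5 for *S100a8*-high over *Cebpe* (WT), 1 for *Fn1* over *Ly86* (WT), 5 for *Ly86* over *Hlf*/*Procr* (KO), 5 for *Siglech* over *Hlf*/*Procr* (KO), 2 for *S100a8*-high over *Cebpe* (KO) and 0 for *Fn1* over *Ly86* (KO). With Leiden clusters the members past 1.5-fold between genotypes numbered 1 (*Hlf*/*Procr*) and 1 (*Ly86*). Those past 2-fold between classes numbered 6 for *Cebpe* over *Hlf*/*Procr* (WT), 8 for *Ly86* over *Hlf*/*Procr* (WT), 11 for *Cebpe* over *Hlf*/*Procr* (KO), 8 for *Ly86* over *Hlf*/*Procr* (KO) and 5 for *Fn1* over *Ly86* (KO). The *Hk2* share of hexokinase UMIs was then 51.0% (Ly86, Lin-/CD11b+ WT), 78.3% (Fn1, Lin-/CD11b+ WT), 54.2% (Ly86, Lin-/CD11b+ KO) and 74.7% (Fn1, Lin-/CD11b+ KO). With TMM scaling the members past 1.5-fold between genotypes numbered 8 (*S100a8*-high) and 2 (GMP *Cebpe*). Those past 2-fold between classes numbered 5 for *Cebpe* over *Hlf*/*Procr* (WT), 7 for *Siglech* over *Hlf*/*Procr* (WT), 5 for *S100a8*-high over *Cebpe* (WT), 7 for *Ly86* over *Hlf*/*Procr* (KO) and 5 for *Fn1* over *Ly86* (KO). Member medians were then -0.39 (*S100a8*-high) and 0.47 (*S100a8*-high over *Cebpe* (WT)). With halved gates the members past 1.5-fold between genotypes numbered 0 (*Cebpe*), 1 (*Ly86*), 2 (*Siglech*), 6 (*S100a8*-high) and 2 (GMP *Cebpe*). Those past 2-fold between classes numbered 4 for *Cebpe* over *Hlf*/*Procr* (WT) and 2 for *Siglech* over *Hlf*/*Procr* (WT). With doubled gates the members past 1.5-fold between genotypes numbered 2 (GMP *Cebpe*). Those past 2-fold between classes numbered 5 for *Ly86* over *Hlf*/*Procr* (KO). The *Hk2* share of hexokinase UMIs was then 37.9% (Cebpe, GMP KO) and 54.4% (Ly86, GMP KO). Without the 20 most abundant genes in the total the members past 1.5-fold between genotypes numbered 0 (*Cebpe*) and 10 (*S100a8*-high). Member medians were then -0.41 (*S100a8*-high) and 0.61 (*S100a8*-high over *Cebpe* (WT)). With the mean over cells the members past 1.5-fold between genotypes numbered 5 (*S100a8*-high). Without *Jchain* or *Mcpt8* and *Prss34* cells the members past 1.5-fold between genotypes numbered 0 (*Cebpe*). Without the 5% of cells with most UMIs the members past 1.5-fold between genotypes numbered 0 (*Siglech*).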
